A study of Homo sapiens with 4 samples.

Results

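Genes of iron uptake, storage and sensing were followed in FaDu cells, an established line of human hypopharyngeal squamous carcinoma cells, by RNA-Seq. They were taken by name, as the rows for TFRC, FTH1, FTL, SLC11A2, SLC40A1, IREB2, ACO1, FBXL5, NCOA4 and STEAP3 that lie on a chromosome, and make up 10 of the 62077 rows of the expression table. A further NCOA4 row on a patch sequence, listed at 0 in every library, was left out. The rule used no measured value, but the genes were chosen with earlier results of these data known. The 4 libraries were N-scr (scrambled control in normoxia), H-scr (scrambled control in hypoxia), N-si (TET1-si in normoxia) and H-si (TET1-si in hypoxia), with 1 library in each group. Hypoxic cells spent 19 h at 1% oxygen in an incubator with 94% N2 and 5% CO2, and normoxic cells stayed in air with 5% CO2. Per the study's methods, knockdown and control cells were infected with a lentivirus carrying a short hairpin RNA, scrambled or against TET1, a dioxygenase that oxidises 5-methylcytosine in DNA, and were assayed within days. How the infected cells of these libraries were selected is not given in the sources used here. Values are FPKM, that is, fragments per kilobase of exon scaled to the number of fragments mapped, as deposited by the authors.

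Iron enters most cells bound to transferrin, which the transferrin receptor TFRC carries into endosomes. There the reductase STEAP3 converts ferric to ferrous iron, and the transporter SLC11A2 (DMT1) moves it to the cytosol. Iron not in use is held in ferritin, a shell of heavy (FTH1) and light (FTL) chains, and the cargo receptor NCOA4 delivers ferritin to the lysosome when iron is needed. SLC40A1 (ferroportin) exports iron. The iron regulatory proteins ACO1 (IRP1) and IREB2 (IRP2) bind iron-responsive elements (IREs), which are hairpins in the untranslated regions of mRNAs: in a 5′ UTR the binding blocks translation, and in the 3′ UTR of TFRC it protects the mRNA from decay. FBXL5 is the subunit of a ubiquitin ligase that senses iron and oxygen and marks IREB2 for degradation. Much of this control acts on translation or protein stability, which RNA-Seq does not measure.

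The IREs are shown because they are the sequence that ACO1 and IREB2 bind, and the transcripts of some of these genes carry them. The coding transcripts of GENCODE v44lift37 were searched for a bulged C, 5 bases, the loop CAGUGN and 5 bases that pair with the first 5 (A with U, G with C or U). The hairpin was found in 4 of the 10 genes, against 303 of 19833 protein-coding genes (1.53%), in the 5′ UTR of FTH1, FTL and SLC40A1 and at 4 places in the 3′ UTR of TFRC. SLC11A2 gave no hairpin of this form, which says only that these letters were not found. Hairpins of other forms were not searched, so the 4 places in TFRC count this form only. The windows below are in hg19, written 5′ to 3′ as RNA, and capitals mark the 6 bases of the loop.
FTH1, 5′ UTR, chr11:61735046-61735074, minus strand: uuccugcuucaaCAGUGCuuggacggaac
FTL, 5′ UTR, chr19:49468592-49468620, plus strand: cucuugcuucaaCAGUGUuuggacggaac
SLC40A1, 5′ UTR, chr2:190445387-190445415, minus strand: caacuucagcuaCAGUGUuagcuaaguuu
TFRC, 3′ UTR, chr3:195777850-195777878, minus strand: aauuaucggaagCAGUGCcuuccauaauu
TFRC, 3′ UTR, chr3:195777446-195777474, minus strand: cauuaucgggagCAGUGUcuuccauaaug
TFRC, 3′ UTR, chr3:195777381-195777409, minus strand: cuguaucggagaCAGUGAucuccauaugu
TFRC, 3′ UTR, chr3:195777334-195777362, minus strand: aauuaucgggaaCAGUGUuucccauaauu

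The FTH1 and FTL windows carried the loops CAGUGC and CAGUGU, and the 4 TFRC windows lay between 195777334 and 195777878 on chromosome 3.

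The libraries were checked before the genes were read. Depth recovered from genes with 1 exon lay between 22480000 reads (H-si) and 24520000 reads (H-scr). TET1 itself went from 0.129 FPKM (N-scr) to 0.0493 (N-si) under normoxia and from 0.331 (H-scr) to 0.122 (H-si) under hypoxia, on 11 to 76 reads. All 8 squamous epithelial markers were above 0 in every library, and their summed level was 6049.9 and 7525 FPKM in N-scr and H-scr against 1994 and 2979 FPKM in N-si and H-si. Of the 8, KRT5, KRT8 and KRT18, which make up most of the sum, were at least 2-fold lower in both TET1-si libraries. CDH1, EPCAM and JUP were higher in both, by 0.27 to 0.68 on the log2 scale, and TP63 and DSP had values between -0.27 and 0.25. Of 7 markers of other cell types, COL1A1 (5.29 to 37.0 FPKM) and CD68 (19.8 to 26.8 FPKM) had a mean of at least 1 FPKM, and PTPRC, HBB, HBA1, ALB and COL3A1 were below 0.6 FPKM in every library. The 7 summed to 26.6 and 40.9 FPKM in normoxia (N-scr, N-si) and to 49.0 and 64.3 FPKM in hypoxia (H-scr, H-si), and the part of either marker sum in the results below was not tested. Of 10 genes known to be induced by hypoxia, 9 passed 2-fold upward with the scrambled control (median log2 difference 2.32) and 8 with TET1-si (median 1.5).

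With 1 library per group there is no replicate error, and no p-value is given. Each difference is one between 2 libraries. Intervals below are 95% counting intervals (exact Clopper-Pearson) of the log2 ratio on approximate reads, and cover counting error only.

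Across the 4 libraries FTH1 was the most abundant of these transcripts, followed by FTL, TFRC, NCOA4, IREB2, SLC11A2, FBXL5, ACO1, STEAP3 and SLC40A1. FTH1 ranked 1 among all genes of the table in H-scr and in N-si, 3 in H-si and 5 in N-scr, and took 0.628% to 0.80% of the summed FPKM. The ranges of IREB2 and SLC11A2 overlapped over the 4 libraries, as did those of SLC11A2 and FBXL5 and those of ACO1 and STEAP3. The other neighbours in this order did not overlap. SLC40A1 was the only one of the 10 with a mean below 1 FPKM.

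**Figure D1:**
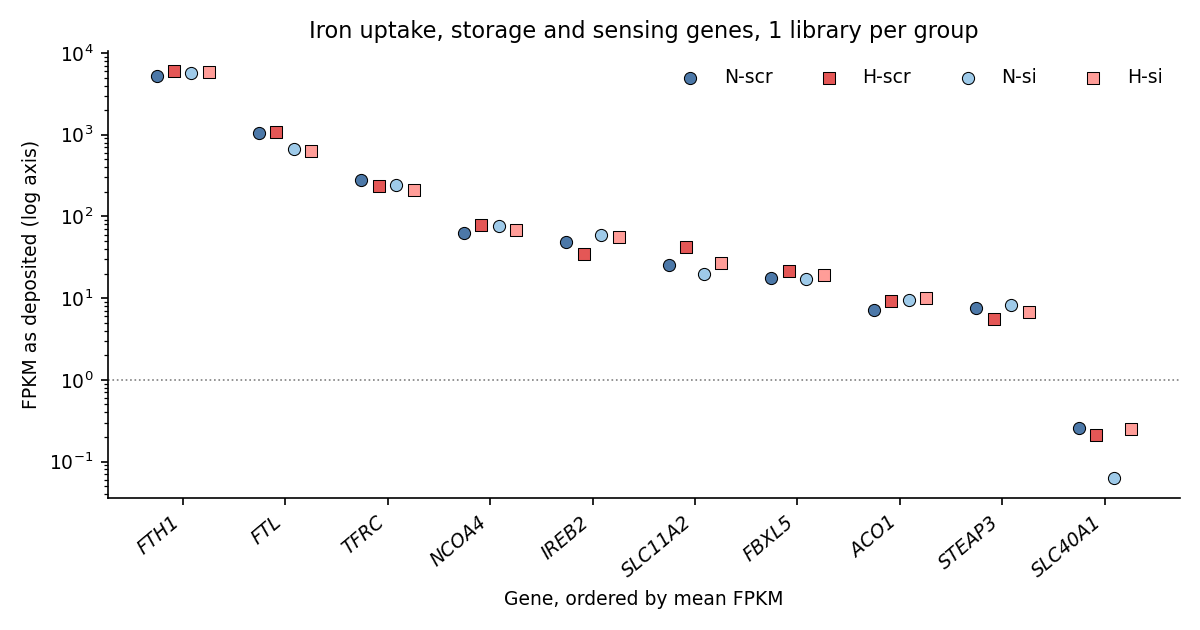
FPKM (log axis) of the 10 genes, ordered by mean FPKM, with 1 point for each of the 4 libraries (circles normoxia, squares hypoxia, dark scrambled, pale TET1-si). The dotted line marks 1 FPKM. FTH1 is highest in every library, with at least 5169 FPKM, and SLC40A1 lowest, with at most 0.258 FPKM.

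None of the 9 genes with a mean of at least 1 FPKM differed 2-fold in any comparison, and only SLC40A1, which is taken up under export, lay below that mean. Differences are given as log2(FPKM + 0.1), and genes with a mean of at least 1 FPKM were counted, which kept 9 of the 10 genes and 15057 of the table. In the hypoxia response of scrambled cells (H-scr against N-scr), 0 of the 9 were higher by 2-fold and 0 were lower by 2-fold, where 12.9% and 4.53% of all genes were. For hypoxia with TET1-si, which sets H-si against N-si, the 0 higher and 0 lower stood against 12.5% and 8.66% of all genes. After TET1-si under hypoxia, that is H-si against H-scr, they stood against 12.0% and 8.35%, and for N-si against N-scr, the same under normoxia, against 12.1% and 5.56%. The difference of hypoxia responses, taken as TET1-si minus scrambled, reached 1 in either direction for 0 of the 9, against 4.87% (higher) and 7.86% (lower) of all genes. Read against these backgrounds, 0 of 9 genes is not a result particular to iron genes. The median difference of the 9 was 0.22 and -0.07 in hypoxia in scrambled and TET1-si cells, against 0.05 and 0.03 for all genes. After TET1-si it was -0.14 under hypoxia and 0.10 under normoxia, against 0.10 and 0.15 for all genes.

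At 1.5-fold, SLC11A2 was higher in hypoxia in scrambled cells and none of the 9 was lower, where 23.2% of all genes were higher and 13.7% lower. In TET1-si cells none of the 9 was past 1.5-fold in hypoxia in either direction (23.7% and 19.0% of all genes). After TET1-si under hypoxia IREB2 was higher and FTL and SLC11A2 were lower (24.3% and 16.8% of all genes). Under normoxia FTL was lower and no gene of the 9 was higher (12.0% and 24.7% of all genes). The median of all genes depended on the scaling. For the TET1-si responses it was 0.10 under hypoxia and 0.15 under normoxia as deposited, -0.03 and -0.0042 under median-of-ratios scaling, and 0.17 and 0.20 as TPM. For the hypoxia responses TPM moved it from 0.05 and 0.03 to 0.16 in scrambled and in TET1-si cells. TET1-si responses are therefore also given relative to the median of all genes as deposited.

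**Figure D2:**
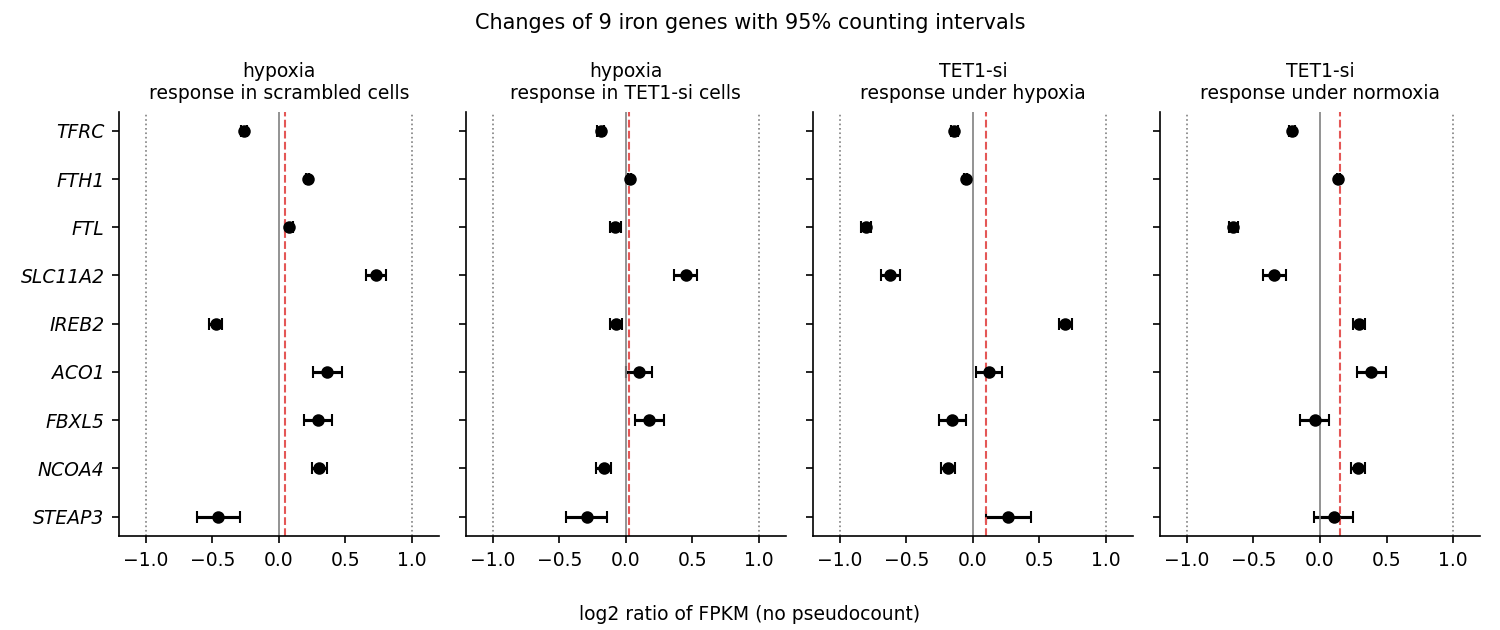
log2 ratio of FPKM (x axis) of the 9 genes with a mean of at least 1 FPKM in the 4 comparisons, 1 panel each. Bars are 95% counting intervals, dotted lines mark 2-fold, the grey line 0 and the dashed red line the median difference of all genes. FTL and SLC11A2 lie left of 0 and IREB2 right of 0 in both TET1-si panels, and no point reaches 2-fold.

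For uptake, the receptor and its reductase were lower in hypoxia and the endosomal transporter was higher. TFRC (ENSG00000072274, chromosome 3, 195754054 to 195809060, minus strand, hg19) was measured at 279 FPKM (N-scr) and 233 (H-scr) with the scrambled control, and at 241 (N-si) and 212 (H-si) with TET1-si. It was lower in each hypoxia library than in its normoxia partner and lower in each TET1-si library than in its scrambled partner. Its log2 ratio was -0.26 in hypoxia in scrambled cells (interval -0.28 to -0.24) and -0.19 in TET1-si cells (-0.21 to -0.16), which is 1.2-fold and 1.14-fold lower. TET1-si came with a difference of -0.14 under hypoxia and one of -0.21 under normoxia, which relative to all genes is -0.24 and -0.36. These directions held under each of 3 other scalings.

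SLC11A2 (ENSG00000110911, chromosome 12, 51373184 to 51422349, minus strand) had the widest range of the 9, at 25.3 FPKM (N-scr) and 41.8 (H-scr) with the scrambled control, and at 19.9 (N-si) and 27.2 (H-si) with TET1-si. It was highest in H-scr and lowest in N-si. Hypoxia came with 1.66-fold more in scrambled cells (log2 difference 0.72, interval 0.65 to 0.80) and 1.37-fold more in TET1-si cells (0.45, interval 0.36 to 0.54). After TET1-si it was 1.54-fold lower under hypoxia (-0.62, or -0.72 relative to all genes) and 1.27-fold lower under normoxia (-0.34, or -0.49). Across the scalings the hypoxia response in scrambled cells ran from 0.61 to 0.84 and the TET1-si response under hypoxia from -0.76 to -0.55. The gene makes transcripts with and without an IRE, and a gene-level FPKM does not tell them apart. In normoxia the FPKM ratio of SLC11A2 to TFRC was 0.0904 (N-scr) and 0.0825 (N-si), against 0.179 (H-scr) and 0.129 (H-si) in hypoxia.

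STEAP3 (ENSG00000115107, chromosome 2, 119981384 to 120023228, plus strand) was measured at 7.65 FPKM (N-scr) and 5.58 (H-scr) with the scrambled control, and at 8.21 (N-si) and 6.71 (H-si) with TET1-si. Both hypoxia libraries were below both normoxia libraries. The log2 difference in hypoxia was -0.45 with the scrambled control (interval -0.62 to -0.29) and -0.29 with TET1-si (-0.45 to -0.14). With TET1-si it was 0.26 higher under hypoxia, and 0.10 under normoxia with an interval from -0.05 to 0.25, a difference not detectable at this depth that turned to -0.06 under median-of-ratios scaling. Set against all genes, both values became 0.16 and -0.05. The antisense gene STEAP3-AS1 overlaps its exons, and reads of the pair cannot be told apart without strand. That gene had 1.08 to 1.68 FPKM.

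The promoters of the endosomal pair TFRC and SLC11A2 are printed because their transcripts lay in opposite directions in hypoxia. Hypoxia-inducible factors are known to bind sites with the core ACGTG or GCGTG. These letters were searched on both strands in the 250 bases before 1 annotated start of each gene (RefSeq, GRCh38.p14). For SLC11A2, SLC40A1, IREB2 and FBXL5 this window lies inside the span given for the gene. For TFRC, FTL, ACO1, NCOA4 and STEAP3 it overlaps that span in part. Other starts of these genes, including any further upstream, were not searched. The table held 9 of the 10 genes, without FTH1. At least 1 match stood in 6 of the 9, against 11763 of 27305 promoters (43.1%). Each sequence is placed by its exact match in hg19 and runs 5′ to 3′ on the gene's strand, with matches in capitals.
TFRC, chr3:195808962-195809211, minus strand: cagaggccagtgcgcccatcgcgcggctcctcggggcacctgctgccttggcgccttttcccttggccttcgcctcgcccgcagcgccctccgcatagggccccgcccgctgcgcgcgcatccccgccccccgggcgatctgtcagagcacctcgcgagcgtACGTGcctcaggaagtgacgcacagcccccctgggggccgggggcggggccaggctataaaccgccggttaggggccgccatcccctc
SLC11A2, chr12:51420168-51420417, minus strand: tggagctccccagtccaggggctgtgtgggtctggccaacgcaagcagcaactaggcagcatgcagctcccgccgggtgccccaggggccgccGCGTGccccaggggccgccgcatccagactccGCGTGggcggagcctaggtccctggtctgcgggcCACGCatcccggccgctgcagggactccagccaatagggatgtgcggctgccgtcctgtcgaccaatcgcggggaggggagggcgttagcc

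TFRC had 1 match, ACGTG at -88 to -84 from the start, and SLC11A2 had 3, all GCGTG or its reverse complement. FTL also had 3, FBXL5 had 2 that overlap each other, and IREB2 and ACO1 had 1 each. SLC40A1, NCOA4 and STEAP3 had none in this window. A match is a description of the letters and not of binding.

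For storage, the light chain of ferritin was lower in both TET1-si libraries while the heavy chain lay within a narrow range. FTH1 (ENSG00000167996, chromosome 11, 61727190 to 61735132, minus strand) was measured at 5169 FPKM (N-scr) and 6012 (H-scr) with the scrambled control, and at 5680.5 (N-si) and 5791 (H-si) with TET1-si. The lowest and highest were 1.16-fold apart. The log2 difference in hypoxia was 0.22 with the scrambled control and 0.03 with TET1-si. TET1-si came with a difference of -0.05 under hypoxia and one of 0.14 under normoxia, which set against all genes became -0.16 and -0.01. Of these 4 values, that in scrambled cells kept its sign under each scaling, and each of the others changed sign under at least 1.

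FTL (ENSG00000087086, chromosome 19, 49468558 to 49470135, plus strand) was measured at 1036 FPKM (N-scr) and 1091 (H-scr) with the scrambled control, and at 659.9 (N-si) and 625 (H-si) with TET1-si. The 2 scrambled libraries were above both TET1-si libraries. It was 1.57-fold lower after TET1-si under normoxia (-0.65, interval -0.69 to -0.61) and 1.75-fold lower under hypoxia (-0.80, interval -0.84 to -0.77), or -0.80 and -0.91 relative to all genes. Across the scalings the value under hypoxia ran from -0.95 to -0.74, short of 2-fold. Between oxygen states FTL differed little, with log2 differences of 0.08 with the scrambled control and -0.08 with TET1-si, and both signs depended on the scaling. The ratio of FTH1 to FTL was 4.99 and 5.51 with the scrambled control (N-scr, H-scr) against 8.61 and 9.27 with TET1-si (N-si, H-si).

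Ferritin genes have many processed pseudogenes that can share their reads. The table held 25 rows of FTH1 pseudogenes, which summed to 2.09 to 2.61 FPKM, and 16 of FTL pseudogenes, which summed to 0.896 to 3.90 FPKM. These sums were at most 0.045% of FTH1 and 0.624% of FTL, and adding them back left the differences of both genes within their counting intervals. How the authors' counting split shared reads is not given in the sources used here, and the ferritin levels are uncertain to that extent. On the opposite strand BEST1 overlaps FTH1 and had 1.25 to 2.93 FPKM.

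NCOA4 (ENSG00000138293, chromosome 10, 51565108 to 51590734) was measured at 63.0 FPKM (N-scr) and 77.9 (H-scr) with the scrambled control, and at 76.8 (N-si) and 68.4 (H-si) with TET1-si. It was higher in hypoxia in scrambled cells, with a log2 difference of 0.30 (interval 0.25 to 0.36), and lower in TET1-si cells, with -0.17 (-0.22 to -0.11). The TET1-si response, from the same 4 libraries, was 0.28 under normoxia and -0.19 under hypoxia, or 0.13 and -0.29 relative to all genes. The 4 signs held under each scaling. The difference of hypoxia responses was -0.47, and no replicate exists to test it. IREB2 had 0.40, and under upper-quartile scaling the sizes changed order, with -0.41 for NCOA4 and 0.46 for IREB2.

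For export, SLC40A1 (ENSG00000138449, chromosome 2, 190425305 to 190448484, minus strand) was near the limit of measurement. It was measured at 0.258 FPKM (N-scr) and 0.209 (H-scr) with the scrambled control, and at 0.0630 (N-si) and 0.252 (H-si) with TET1-si, on approximately 18, 16, 5 and 18 reads. N-si stood below the other libraries. The interval in hypoxia ran from -1.34 to 0.79 in scrambled cells, so a difference was not detectable at this depth, and from 0.49 to 3.76 in TET1-si cells. For the TET1-si response it was -3.73 to -0.46 under normoxia, and -0.76 to 1.36 under hypoxia.

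For sensing, the ratio of IREB2 to its homologue ACO1 was lower in H-scr than in the other libraries. IREB2 (ENSG00000136381, chromosome 15, 78729773 to 78793798, plus strand) was measured at 48.7 FPKM (N-scr) and 35.1 (H-scr) with the scrambled control, and at 59.7 (N-si) and 56.7 (H-si) with TET1-si. H-scr was the lowest of the 4 libraries. It was 1.39-fold lower in hypoxia in scrambled cells (-0.47, interval -0.53 to -0.42). In TET1-si cells the difference was -0.07, which turned to 0.06 after rescaling to TPM. After TET1-si it was 1.62-fold higher under hypoxia (0.69, interval 0.64 to 0.75, or 0.59 relative to all genes) and 1.22-fold higher under normoxia (0.29, or 0.14).

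ACO1 (ENSG00000122729, chromosome 9, 32384618 to 32450834, plus strand) serves either as a cytosolic aconitase or, without its iron-sulfur cluster, as an IRE-binding protein. It was measured at 7.18 FPKM (N-scr) and 9.25 (H-scr) with the scrambled control, and at 9.38 (N-si) and 10.1 (H-si) with TET1-si, so that N-scr lay below the other libraries. The log2 difference in hypoxia was 0.36 with the scrambled control (interval 0.26 to 0.48) and 0.10 with TET1-si (0.0011 to 0.20). After TET1-si it was 0.38 under normoxia and 0.12 under hypoxia, where it turned to -0.02 under median-of-ratios scaling. Set against all genes, both values became 0.23 and 0.02. The ratio of IREB2 to ACO1 was 3.79 in H-scr and between 5.64 and 6.79 in the other libraries.

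FBXL5 (ENSG00000118564, chromosome 4, 15606162 to 15683302, minus strand) was measured at 17.5 FPKM (N-scr) and 21.4 (H-scr) with the scrambled control, and at 17.0 (N-si) and 19.2 (H-si) with TET1-si. Both hypoxia libraries were above both normoxia libraries, with log2 differences of 0.29 with the scrambled control (interval 0.19 to 0.40) and 0.18 with TET1-si (0.07 to 0.29). The TET1-si response was -0.15 under hypoxia, or -0.26 relative to all genes. Under normoxia it was -0.04 as deposited, with an interval from -0.15 to 0.07, and -0.19 relative to all genes. Its size and sign depended on the scaling, with -0.21 under median-of-ratios scaling and 0.0094 as TPM.

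**Figure D3:**
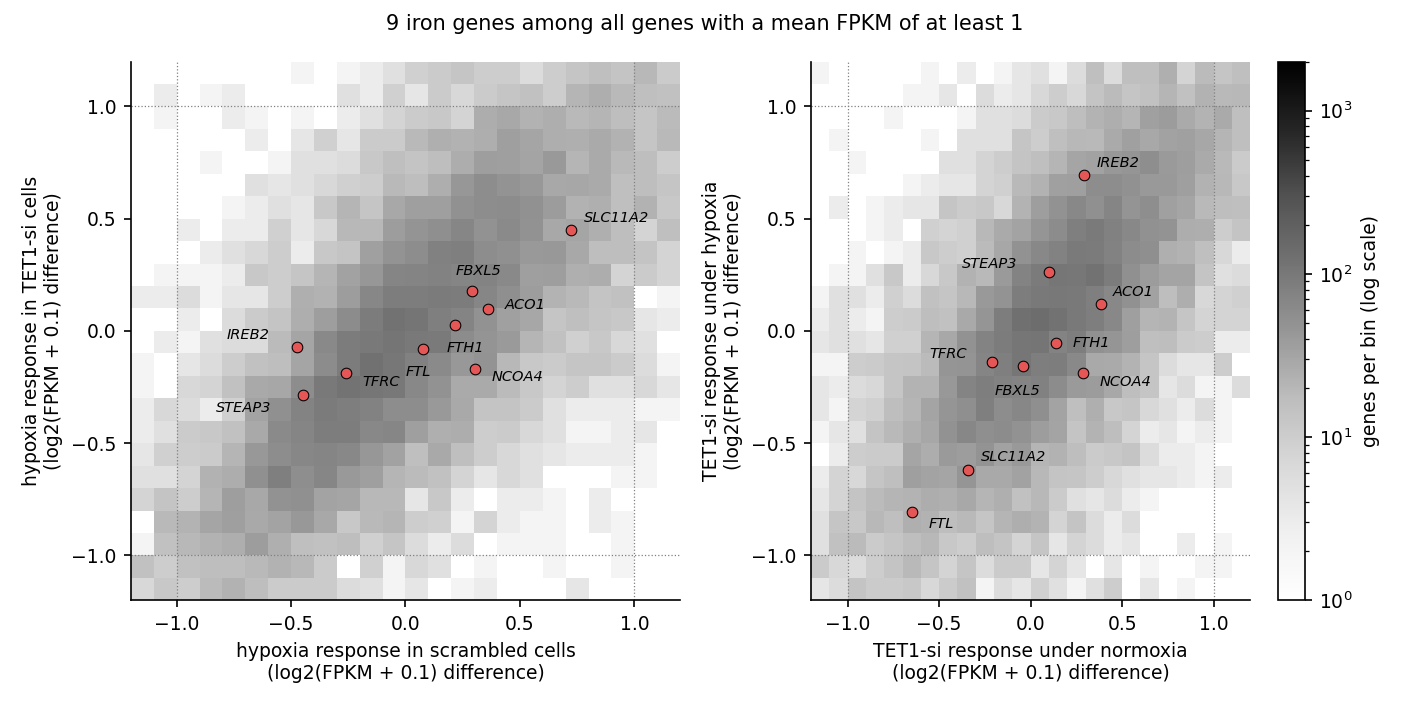
Left, hypoxia response in TET1-si cells (y axis) against scrambled cells (x axis); right, TET1-si response under hypoxia (y axis) against normoxia (x axis), as differences of log2(FPKM + 0.1). Grey shows the number of genes per bin among 15057, of which those past the axis limits are not drawn, red points the 9 iron genes and dotted lines 2-fold. The red points lie within the 2-fold lines, with SLC11A2 farthest right on the left panel and FTL lowest on the right panel. The 2 axes of each panel share no library.

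The study set 3 RNA-Seq criteria for genes regulated by TET1 under hypoxia, namely H-scr over 2 times the level of H-si, more in H-scr than in N-scr, and no more in N-si than in N-scr. None of the 10 genes (0) met them. Over all rows the criteria were met by 2687 of 62077 (4.33%), and among genes with a mean of at least 1 FPKM by 578 of 15057 (3.84%). Neither count equals the number of genes that the study reports, and the reason was not tested. FTL, SLC11A2 and FBXL5 met the last 2 of the criteria and had H-scr 1.75, 1.54 and 1.11 times H-si.

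The rest of the iron machinery was read from 7 further lists, in which 71 of 83 genes had a mean of at least 1 FPKM. In hypoxia 4 of the 71 were past 2-fold upward and 3 downward with the scrambled control, where 12.9% and 4.53% of all genes were. With TET1-si 4 and 7 were, against 12.5% and 8.66% of all genes. After TET1-si 6 were higher and 9 lower under hypoxia (12.0% and 8.35% of all genes), and 6 and 4 under normoxia (12.1% and 5.56%).

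Among 10 measured genes of other iron import and reduction, CYBRD1, a ferric reductase of the plasma membrane, was measured at 0.641 FPKM (N-scr) and 1.76 (H-scr) with the scrambled control, and at 1.38 (N-si) and 6.31 (H-si) with TET1-si. It was at least 2-fold higher in both hypoxia libraries and in both TET1-si libraries, as was STEAP4, a metalloreductase of the STEAP3 family, with 1.95, 4.88, 4.5 and 10.7 FPKM in the order N-scr, H-scr, N-si and H-si, which is kept for the genes that follow. CYBRD1 rested on 59 reads in N-scr and 136 in N-si, with a TET1-si response under normoxia of 1.00 (interval 0.66 to 1.57) that was 0.85 relative to all genes and so no longer 2-fold. STEAP1, another family member, had 4.14, 2.12, 0.666 and 0.162 FPKM and had TET1-si responses of -3.09 under hypoxia and -2.47 under normoxia. It passed the filter through the scrambled libraries, and the value under hypoxia rested on 52 reads in H-scr and 4 in H-si (interval -5.50 to -2.13). LCN2, which binds iron-laden siderophores, had 64.4, 209, 12.4 and 46.2 FPKM. It was higher under hypoxia with the scrambled control (1.69) and with TET1-si (1.89), and lower after TET1-si under hypoxia (-2.17) and normoxia (-2.36). PCBP2, an iron chaperone and the most abundant gene of the list, had 604, 530.1, 399 and 423 FPKM.

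Among 4 measured genes of export and systemic control, CP (ceruloplasmin), the ferroxidase that works with SLC40A1, was measured at 5.57 FPKM (N-scr) and 29.7 (H-scr) with the scrambled control, and at 2.51 (N-si) and 4.01 (H-si) with TET1-si. Both TET1-si libraries were lower than their scrambled partners (-2.86 under hypoxia and -1.12 under normoxia). FLVCR1, a haem exporter and the most abundant of this list, had 24.6, 26.8, 40.5 and 27.4 FPKM. HEPH was listed at 0 in the 4 libraries, and HAMP, which encodes hepcidin, was listed at 0.211 FPKM in H-scr and at 0 in the others. Of the 6 partners of FBXL5 and NCOA4, which include SKP1 and CUL1 of the FBXL5 ligase, none differed 2-fold in any comparison. Of all genes, 4.53% to 12.9% did, by comparison and direction, so 0 of 6 is not particular to these partners. SKP1 had 391 to 526 FPKM.

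Among 23 measured genes of mitochondrial iron and iron-sulfur clusters, 3 were at least 2-fold lower and 0 higher in hypoxia in each knockdown state, and the median was -0.45 in scrambled and -0.59 in TET1-si cells against 0.05 and 0.03 for all genes. BOLA3, a cluster assembly factor, was 73.7 and 75.9 FPKM in normoxia (N-scr, N-si) and 30.05 and 21.1 FPKM in hypoxia (H-scr, H-si). HSPA9, a chaperone of the same pathway, was 493 and 385 FPKM in normoxia and 242 and 202 FPKM in hypoxia. IBA57 was at least 2-fold higher after TET1-si in both oxygen states, with 3.86 and 2.80 FPKM in N-scr and H-scr against 8.96 and 5.76 in N-si and H-si. Relative to all genes its value under hypoxia, 1.01, was 0.91 and no longer 2-fold. The median of the 10 measured genes of cytosolic cluster assembly in hypoxia was -0.22 with the scrambled control and -0.14 with TET1-si. None of them differed 2-fold in hypoxia, to be read against the same shares of all genes. FAM96B was at least 2-fold lower after TET1-si in both oxygen states, with 101 and 89.6 FPKM in N-scr and H-scr against 25.9 and 30.4 in N-si and H-si. CIAPIN1 was the most abundant, at 89.6 to 138 FPKM.

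Of 14 measured genes of haem synthesis and breakdown, FECH, which inserts iron into protoporphyrin, was measured at 8.88 FPKM (N-scr) and 8.35 (H-scr) with the scrambled control, and at 24.1 (N-si) and 20.5 (H-si) with TET1-si. PPOX, the enzyme before it, had 9.21, 12.4, 18.8 and 26.8 FPKM. Both were at least 2-fold higher in both TET1-si libraries, although PPOX under normoxia, 1.02, was 0.87 relative to all genes. None of the 14 was 2-fold higher in hypoxia, where 12.9% (scrambled) and 12.5% (TET1-si) of all genes were. PGRMC1, a haem-binding protein and the most abundant of the list, had 113, 165, 91.1 and 64.9 FPKM. Of 4 further measured transcripts known to bear an IRE, EPAS1, which encodes HIF-2α, was measured at 13.3 FPKM (N-scr) and 21.7 (H-scr) with the scrambled control, and at 26.8 (N-si) and 62.4 (H-si) with TET1-si.

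**Figure D4:**
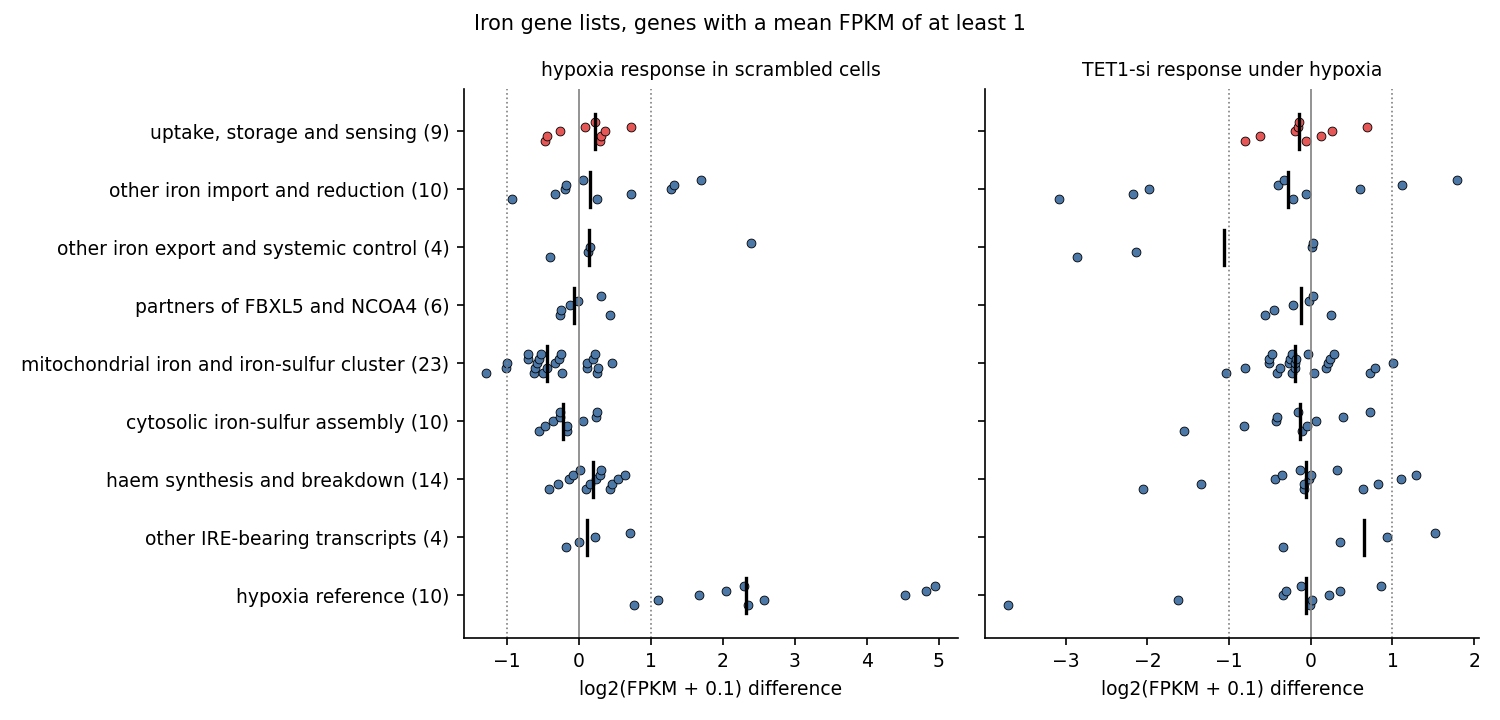
Differences of log2(FPKM + 0.1) (x axis) for genes with a mean of at least 1 FPKM in each iron list and in the hypoxia reference list, for the hypoxia response in scrambled cells (left) and the TET1-si response under hypoxia (right). Points are genes, black bars list medians, dotted lines 2-fold, and numbers in brackets the genes per list. The 9 genes of uptake, storage and sensing (red) stay within 2-fold, while the hypoxia reference genes lie to the right on the left panel, with a median of 2.32.

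SLC11A2 was also compared with 9464 protein-coding genes with a mean of at least 5 FPKM by the Euclidean distance of their 4 centred log2 values. The nearest were CLCN7 (distance 0.053, with 53.9, 87.0, 41.0 and 58.7 FPKM in the order of libraries above), RHOQ (0.063), ALDOA (0.096), AC006486.9 (0.11) and TNFAIP2 (0.12). In all, 25 genes lay within 0.2. The likeness is a description over 4 libraries.

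The position of the genes was read against their neighbours, to show whether nearby genes had similar values. Among the 20 nearest measured protein-coding genes, the median TET1-si response under hypoxia was -0.36 around FTL, where FTL had -0.80 and 15 neighbours lay above it. Around SLC11A2 it was -0.10, with 17 neighbours above, and around IREB2 0.21, with 4 above. Under normoxia the neighbours had medians of -0.0032 around FTL, -0.14 around SLC11A2 and 0.39 around IREB2, with 16, 14 and 12 above. The difference of IREB2 under normoxia, 0.29, lay below the median of its neighbours.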

How the data were processed

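FaDu cells with a scrambled control or TET1-si were sequenced in normoxia and hypoxia, 1 library per group. The authors made mRNA libraries (Illumina TruSeq, HiSeq, 100 bp reads, single end per the labels and paired end per the study's methods) and deposited gene-level FPKM from TopHat and Cufflinks with Ensembl annotations on hg19. Versions and filters are not given in the sources used here. Start positions in the table count from 0, and 1 was added. The 232 rows of 111 gene IDs that stand on more than 1 row were left out of all counts, and none is among the 10 genes.

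Differences are of log2(FPKM + 0.1), which understates the change of low genes. No test was run, since no group has a replicate. Depth was searched, with an offset on gene length, so that low FPKM of genes with 1 exon became whole reads within 0.05, which 95.4% to 96.1% of them did. On a library simulated from 6348 genes the search missed the depth by 0.332%. Approximate reads used the canonical transcript of GENCODE v44lift37 less 213 bp. NCOA4 was matched to it by symbol. The fold calls and intervals were also tested on simulated data. Analysis used Python 3.11.15, pandas 2.3.3, numpy 2.4.6 and SciPy 1.17.1.

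All 10 genes are named. Of each further list the most abundant gene is named, with each gene past 2-fold in 1 direction in both hypoxia responses or in both TET1-si responses, and other genes were picked after their values were seen. Some genes that this rule names are not reported here. The 5 genes nearest the most variable member are named. The members and lists were chosen with earlier results of these data known. Alternatives were 2 pseudocounts, 2 filters, 3 scalings, a lower fold and ferritin summed with its pseudogenes.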

Additional observations from a re-analysis of the deposited data

Results flagged for a closer look

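Among the 10 genes, 4 had responses of opposite sign in the states compared. The share of all genes with opposite signs was not computed, so the count is not read as particular to these genes. Each state has 1 library, so none of these differences was tested. NCOA4 was higher in hypoxia in scrambled cells and lower in TET1-si cells, and higher after TET1-si under normoxia and lower under hypoxia, with a difference of hypoxia responses of -0.47 in both views. SLC40A1 had log2 differences of -0.21 in hypoxia with the scrambled control and 1.11 with TET1-si, and of -1.13 after TET1-si under normoxia and 0.19 under hypoxia, with a difference of 1.32 on 5 to 18 reads per library. For the responses given as -0.21 and 0.19, the counting intervals, which leave out the added 0.1 FPKM, ran from -1.34 to 0.79 and from -0.76 to 1.36. Neither direction was detectable at this depth. FTL was slightly higher in hypoxia in scrambled cells and slightly lower in TET1-si cells, with a difference of -0.15. FTH1 was higher after TET1-si under normoxia and lower under hypoxia, with a difference of -0.19. The signs of the FTL and FTH1 values changed with the scaling, and those of NCOA4 did not.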

How the results depend on the processing

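The count of genes past 2-fold was 0 of 9 in each comparison and stayed 0 with a pseudocount of 1 or 0.01, at a mean of at least 5 FPKM, under median-of-ratios or upper-quartile scaling or TPM, and with ferritin summed with its pseudogenes. Without a filter on expression SLC40A1 entered and gave 1 gene higher in hypoxia with TET1-si, 1 lower after TET1-si in normoxia and 1 higher for the difference of hypoxia responses. At 1.5-fold the counts were 1 higher for the hypoxia response in scrambled cells, 1 higher and 2 lower after TET1-si in hypoxia and 1 lower after TET1-si in normoxia. The study's criteria, met by 0 genes, were met by 2 with H-scr above 1.5 times H-si, FTL and SLC11A2, and by 0 at a mean of at least 1 FPKM, with median-of-ratios scaling and with TPM. The share of all genes that meet the criteria at 1.5 times was not computed, so those 2 genes have no background to be read against. Over the alternatives 9 of the single-gene values changed sign at least once, none of them above 0.14 in size. Leaving out a library is not possible with 1 per group. No paired analysis was possible because the groups hold 1 library each and the labels give no replicate numbers. An additive fit over the 4 libraries, which would take the difference of hypoxia responses as its error, was not run. Depth limits SLC40A1, which rested on 5 to 18 reads.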

Other observations

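Of the 71 measured genes in the further iron lists, 6 (8.45%) met the study's 3 criteria, against 3.84% of all genes with a mean of at least 1 FPKM. They are LCN2, CP, SLC39A8, SLC25A28, PGRMC1 and HMOX1, of which SLC39A8, SLC25A28 and HMOX1 are described here after their values were seen. HMOX1, which breaks down haem and releases its iron, was measured at 17.2 FPKM (N-scr) and 26.9 (H-scr) with the scrambled control, and at 9.30 (N-si) and 6.40 (H-si) with TET1-si. SLC39A8 (ZIP8), an importer of zinc and non-transferrin iron, had 10.3, 17.1, 9.44 and 4.26 FPKM in the same order of libraries. SLC25A28 (mitoferrin 2), which carries iron into mitochondria, had 47.2, 56.3, 34.03 and 27.3 FPKM. The lists were chosen with earlier results known, and with 1 library per group the shares describe these libraries only.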
